A study of Mus musculus with 12 samples.

Results

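The effect of genotype described here is that on the difference between embryonic cortex libraries with more and with less transcript of Nr2f1, a gene for a nuclear receptor. All 12 libraries of the series were used, as 6 pairs of libraries that are neighbours in the numbering of the deposited samples, 3 pairs of knockout and 3 of control embryos. In each pair the member with more Nr2f1 was called higher and the other lower, so the order within a pair was chosen by Nr2f1 itself and not taken from the labels. The quantity compared is the higher-minus-lower difference in log2 CPM (counts per 1000000, scaled by TMM), and the interaction is its value in knockout pairs minus its value in control pairs. A negative interaction says that a gene was less abundant in the higher library, relative to the lower one, in knockout than in control pairs.

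The libraries hold messenger RNA of mouse cortex and hippocampal formation, dissected together at E17.5 and cut into rostral and caudal pieces. Knockout embryos (Nestin-EgfrF/F) were floxed on both chromosomes at Egfr, which encodes a receptor tyrosine kinase for epidermal growth factor, and carried Cre driven by Nestin, which is active in neural progenitors. Control embryos (EgfrF/+) carried 1 floxed allele, and since the titles name Cre for the knockout alone, loss of Egfr and presence of Cre cannot be told apart in any genotype difference below. Knockout pair K1 joined the libraries titled rostral 5 (lower) and rostral 2 (higher), K2 those titled rostral 7 and caudal 5, and K3 those titled caudal 2 and caudal 7. Control pair C1 joined rostral 1 (lower) and rostral 3 (higher), C2 rostral 9 and caudal 1, and C3 caudal 3 and caudal 9. The titles also carry a number before that of the embryo, whose meaning is not given in the sources used here and which differs between the libraries of K1, K2, C1 and C2 and is shared within K3 and C3.

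The vertebrate cortex is patterned into areas by graded transcription factors of its progenitors. Nr2f1, also known as COUP-TFI, is high in caudal and lateral cortex and low in frontal cortex, where it is known to restrain frontal and motor identity. Egfr acts in late progenitors and in the glial lineages that arise from them around birth. Cortical vessels are lined by endothelial cells, wrapped by pericytes and sheathed by a basement membrane of laminins, collagens and nidogens.

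Nr2f1 values are given as a description, since they fixed the order. In knockout, Nr2f1 was at 96.4 CPM in the lower and 339 CPM in the higher library of K1, at 210.5 and 249 CPM in K2 and at 72.4 and 358 CPM in K3. In control it was at 76.2 and 335 CPM in C1, 51.0 and 339.7 CPM in C2 and 59.6 and 376 CPM in C3. The libraries of K2 lay 1.18-fold apart and those of the other 5 pairs from 3.51-fold to 6.66-fold apart. K2 therefore has 2 libraries of intermediate level, and values without it are given beside part of the results.

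The pairs do not follow the titled embryo. K1 and C1 joined libraries both titled rostral and K3 and C3 libraries both titled caudal, so their contrast lies within a titled part. K2 and C2 joined a lower rostral to a higher caudal library. Of the 6 higher libraries 4 were titled caudal and 2 rostral, and of the 6 titled embryos 4 had more Nr2f1 in the caudal library and 2 in the rostral one. Transcripts of the sex chromosomes were of the same kind in both libraries of every pair. K1 and C2 had Y transcripts with Xist at or near 0, K2, K3 and C3 had Xist with Y transcripts at no more than 1.75 CPM, and C1 had both kinds in both libraries (Xist at 222 and 268 CPM, 4 Y genes summing to 91.4 and 88.5 CPM). By titled embryo, only knockout 7 had the same kind in both libraries. Knockout 5, knockout 2 and control 9 each joined a library with Y transcripts to one with Xist. Control 1 joined a library with both kinds to one with Y transcripts, and control 3 to one with Xist. The labels do not say that neighbours share an embryo, so the p-values below measure the spread between these pairs. Total counts ran from 25223733 to 30383672 per library. Mitochondrially encoded genes took 7.25% and 4.77% of the counts in the lower and higher library of K2 and from 1.96% to 3.53% in the other 10.

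The higher-minus-lower differences were broadly alike in the 2 genotypes. Every pair of both genotypes was ordered by Nr2f1, and this shared order enters the correlations below, which are given as a description. Over 17734 genes, the mean difference in knockout pairs and that in control pairs, which share no library, had a Pearson correlation of 0.67 across genes, which are not independent replicates, and of 0.80 over the 11617 genes at 5 CPM or more. Between single pairs the correlation ran from 0.35 to 0.61 where K2 was not involved and from 0.02 to 0.33 where it was. By edgeR's quasi-likelihood test with the pair as a block and Benjamini-Hochberg adjustment, 1 gene, Rgs5, had an interaction at an adjusted p under 0.05, or 0.00564% of genes tested. An unadjusted p under 0.05 was found for 850 genes, a share of the 17734 that is itself below 0.05. Of the 850, 579 had a negative and 271 a positive interaction, the background for list members at such a p. The 3 knockout differences all lay below the 3 control ones for 983 genes (5.54%) and all above them for 889 (5.01%). These 2 shares are the background for the counts of genes with genotypes apart given below. Of the 17734 genes, 8447 had a negative and 9287 a positive interaction. Differences were positive in all 3 control pairs for 4488 genes and in all 3 knockout pairs for 3218. They were negative in all 3 control pairs for 4280 and in all 3 knockout pairs for 2931. These counts are the background for counts of direction in the lists. Members of a list are not independent of each other, so counts of members are a description and not replicates of a genotype.

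**Figure D1:**
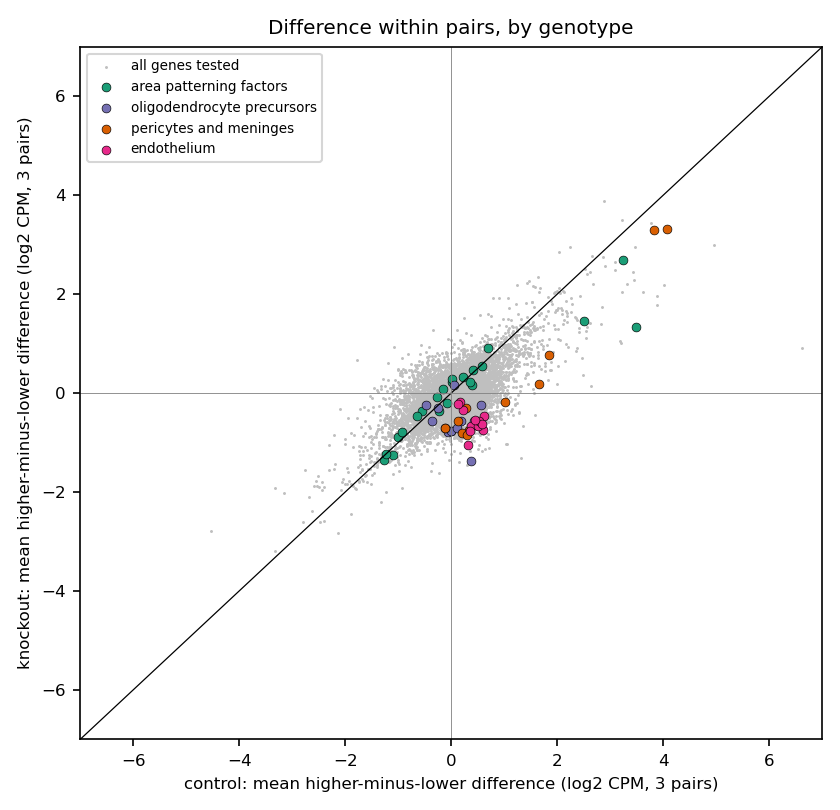
Mean higher-minus-lower difference in log2 CPM over the 3 control pairs (x axis) and the 3 knockout pairs (y axis), with 1 point per gene tested and 4 gene lists coloured; the black line marks equal values. Nr2f2, Nr2f1 and Dmrt3 lie farthest below the line among area patterning factors, and all 13 endothelial genes lie below it.

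Rgs5, a regulator of G protein signalling and a marker of pericytes, was the gene called. It lies on chromosome 1 of GRCm39, from 169483070 to 169523382. In the knockout pairs Rgs5 was at 46.7 CPM in the lower and 29.1 CPM in the higher library of K1, at 81.8 and 49.7 CPM in K2 and at 44.9 and 25.2 CPM in K3. In the control pairs it was at 41.2 and 50.3 CPM in C1, 31.4 and 42.6 CPM in C2 and 42.8 and 52.0 CPM in C3. The higher library thus had less Rgs5 in each knockout pair and more in each control pair, while the levels of the single libraries of the 2 genotypes overlapped. The differences were -0.74 ± 0.08 in knockout and 0.34 ± 0.09 in control (log2, SD, n = 3 pairs each). The interaction was -1.08 (SE 0.09, adjusted p = 0.0098 by edgeR) and -1.09 without K2 (adjusted p = 0.0474). With any 1 pair left out it ran from -1.11 to -1.03, with an adjusted p of 0.00993 to 0.193, and the call was lost without K3, C1, C2 or C3. The block is not the embryo of the titles, whose libraries, those of knockout 7 aside, were unlike in sex-chromosome transcripts. With the titled embryo as block the interaction was -1.07 (adjusted p = 0.9999 by edgeR), with no block -1.065 (adjusted p = 0.99995), and for the titled part in place of the Nr2f1 level -0.49 (adjusted p = 1). A difference in bulk tissue does not separate fewer cells of a type from less RNA per cell, here and for every cell type marker below.

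The promoter of Rgs5 is shown because it is the 1 gene called. It is RefSeq's sequence on the plus strand of GRCm38.p6, chr1:169655251-169655550, an assembly older than that of the counts, from 250 bases before the annotated start to 50 after it. Capitals mark the 1 match of the E-box letters CANNTG, searched on both strands.
Rgs5 promoter: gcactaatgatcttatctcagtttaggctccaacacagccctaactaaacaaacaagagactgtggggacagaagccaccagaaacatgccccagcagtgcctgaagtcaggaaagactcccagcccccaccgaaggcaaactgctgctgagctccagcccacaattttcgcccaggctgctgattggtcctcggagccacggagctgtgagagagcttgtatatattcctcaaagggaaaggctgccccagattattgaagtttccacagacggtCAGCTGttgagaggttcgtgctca
The match covers bases 277 to 282 of the 300, after the start, and 72.3% of the 32851 promoters of this length hold at least 1 such match. The letters TATAAA have 0 matches here on either strand and are found in 13.6% of promoters. Both are descriptions of letters and not of binding.

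Of the 10 genes with the smallest p and a negative interaction, Abcc9, Nid1, Vtn and Lama4 did not pass edgeR's test. The DESeq2 Wald test, run as an alternative, called 48 of the 12920 genes to which it gave an adjusted p (0.372%), and these 4 were among them (adjusted p 0.000841 for Abcc9, 1.21e-05 for Nid1, 0.00552 for Vtn and 0.00314 for Lama4). Abcc9, the regulatory subunit of a pericyte potassium channel, was at 18.4 and 10.1, 39.9 and 22.7, and 24.2 and 14.2 CPM in the lower and higher libraries of K1, K2 and K3. In C1, C2 and C3 Abcc9 was at 15.6 and 15.9, 12.6 and 17.3, and 21.1 and 22.8 CPM, so that it was nearly level in C1. Its interaction was -1.01 (SE 0.13, adjusted p = 0.0883 by edgeR). Nid1, a nidogen that links laminin to collagen, was at 29.1 and 23.6, 52.1 and 35.6, and 32.1 and 19.9 CPM in the knockout pairs. In C1, C2 and C3 Nid1 was at 25.8 and 33.2, 19.9 and 33.5, and 31.6 and 48.6 CPM. The direction was opposite in the 2 genotypes in all 6 pairs, with an interaction of -1.09 (SE 0.13, adjusted p = 0.075 by edgeR). For Vtn, which encodes the adhesion protein vitronectin, the interaction was -1.08 (adjusted p = 0.0883 by edgeR), and for the laminin chain gene Lama4 it was -0.96 (adjusted p = 0.119 by edgeR). Vtn differences were -0.79, -0.73 and -0.98 in knockout and 0.13, 0.37 and 0.23 in control. Lama4 differences were -0.78, -0.79 and -0.81 in knockout and -0.12, 0.39 and 0.23 in control.

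Of the list of pericyte and meningeal markers, 12 of 14 genes passed the filter on low counts. They include Rgs5, the gene called, and Abcc9, so the list is not separate from these genes. All 12 had a negative interaction, 1 was called by edgeR and 3 by DESeq2, and 8 had knockout differences all below the control ones. The median interaction was -1.12 (-1.05 without K2), against 0.01 over all genes tested. The list is mixed, since Dcn and Cyp1b1, named here after their values were seen, were more abundant in the higher library of all 6 pairs and had interactions of 1.61 and 0.67 without K2. The summed level of the list was at 118 and 91.9 CPM in K1, 219 and 144 CPM in K2 and 127 and 81.0 CPM in K3. In control pairs the sum was at 99.8 and 125 CPM in C1, 88.3 and 118 CPM in C2 and 119 and 179 CPM in C3. Rgs5 alone made up 46.7, 81.8 and 44.9 CPM of the sums in the lower libraries of K1, K2 and K3. In those of C1, C2 and C3 it made up 41.2, 31.4 and 42.8 CPM.

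**Figure D2:**
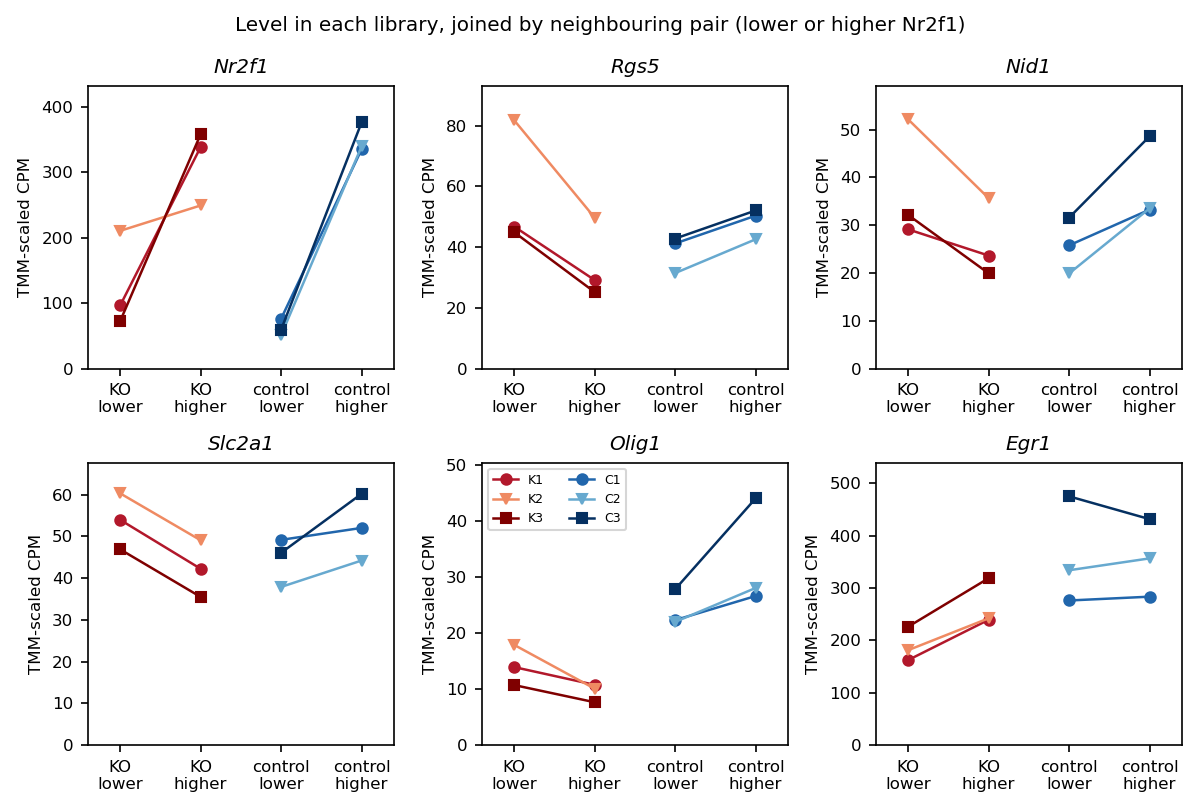
TMM-scaled CPM of 6 genes in each of the 12 libraries, with a line joining the lower and the higher library of each pair (KO, knockout). Lines of Rgs5, Nid1, Slc2a1 and Olig1 go down in the 3 knockout pairs and up in the 3 control pairs, and those of Egr1 go up in the knockout pairs.

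Endothelial markers had negative interactions too. Of 13 genes tested, 13 had a negative interaction, 11 had knockout differences all below the control ones (5.54% of all genes did) and 0 were called, with 12 at an unadjusted p under 0.05 by edgeR. DESeq2 called 8 of them, and the 13 markers of this cell type are not independent replicates. The median interaction of the list was -1.08, with or without K2. Knockout differences were negative in all 3 pairs for 12 of the 13, and control differences were positive in all 3 pairs for 9. The summed level of the list was at 286 CPM in the lower and 226 CPM in the higher library of K1, 334 and 248 CPM in K2 and 252 and 173 CPM in K3. In control pairs the sum was at 267 and 277 CPM in C1, 175 and 235 CPM in C2 and 222 and 329 CPM in C3. Knockout and control libraries thus spanned nearly the same range, and it was the direction within pairs that differed.

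Slc2a1, the glucose transporter of the blood-brain barrier, was at 53.9 and 42.2, 60.3 and 49.0, and 46.9 and 35.5 CPM in K1, K2 and K3. In the control pairs Slc2a1 was at 49.1 and 52.0, 37.9 and 44.2, and 46.1 and 60.2 CPM. The interaction of Slc2a1 was -0.58 (SE 0.10, adjusted p = 0.208 by edgeR). Tie1, a receptor tyrosine kinase of endothelial cells, was at 8.69 and 6.19, 12.5 and 7.85, and 6.52 and 3.78 CPM in knockout pairs and at 8.85 and 9.80, 5.39 and 8.82, and 7.09 and 10.4 CPM in control pairs. Its interaction was -1.11 (SE 0.19, adjusted p = 0.208 by edgeR).

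**Figure D3:**
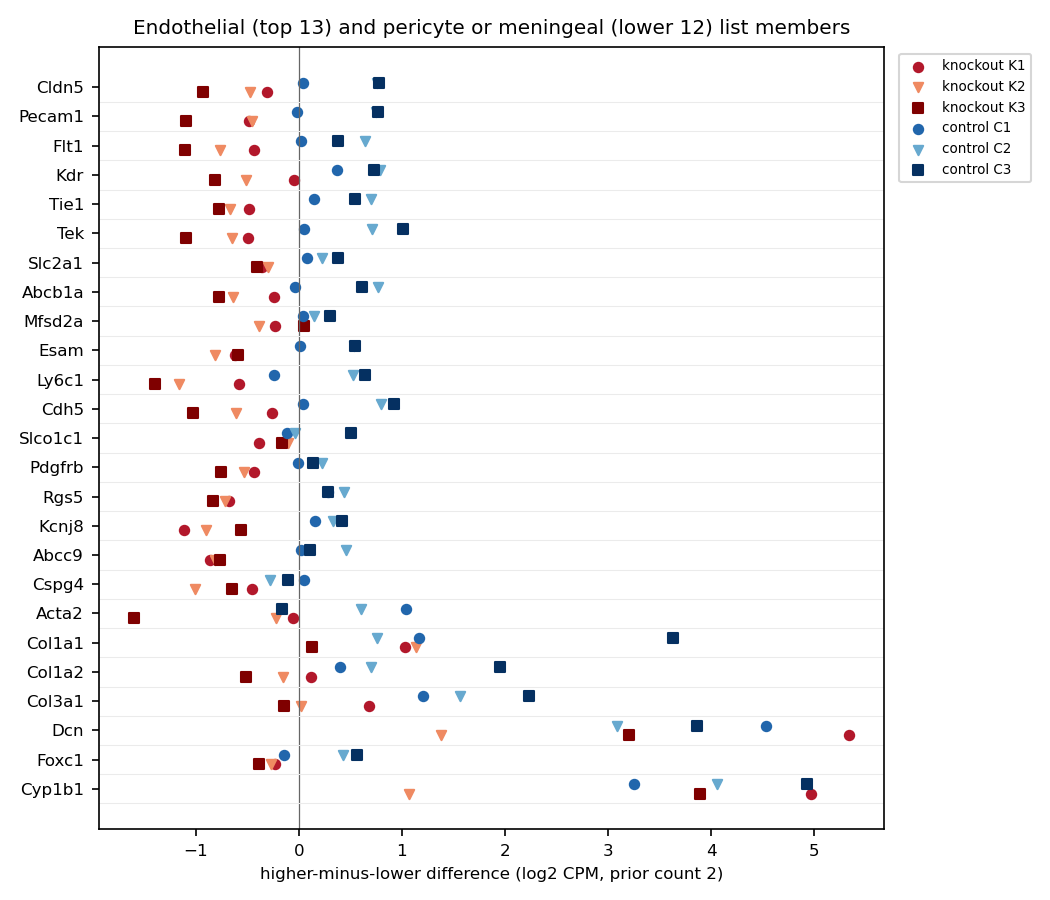
Higher-minus-lower difference in log2 CPM of each tested endothelial gene (top 13 rows) and pericyte or meningeal gene (lower 12 rows) in each pair, knockout pairs in red and control pairs in blue. In 11 of the upper and 8 of the lower rows every red point lies to the left of every blue one; Dcn and Cyp1b1 are above 0 in all 6 pairs.

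Among all nameable genes at 1 CPM or more, the 10 with the smallest p and a negative interaction also held Cavin1, Cgnl1, Igf2, Ednrb and Wnt7b. DESeq2 called each of these, and edgeR did not. The genes were chosen by a small p in the same counts, so these calls are not separate support. DESeq2's adjusted p was 0.00868 for Cavin1, 0.0294 for Cgnl1, 8.92e-05 for Igf2, 0.00314 for Ednrb and 0.00069 for Wnt7b. Cavin1, a coat protein of caveolae, had differences of -0.58, -0.35 and -0.84 in knockout and 0.54, 0.72 and 0.82 in control, with an interaction of -1.28 (adjusted p = 0.119 by edgeR). The junction protein gene Cgnl1 had differences of -0.61, -0.75 and -0.86 in knockout and 0.27, 0.72 and 0.56 in control, with an interaction of -1.27 (adjusted p = 0.135 by edgeR). Igf2, an insulin-like growth factor, was at 18.8 and 12.9, 44.9 and 28.2, and 25.6 and 13.8 CPM in knockout pairs and at 17.99 and 22.5, 16.7 and 23.7, and 29.6 and 34.8 CPM in control pairs. Its interaction was -1.05 (SE 0.12, adjusted p = 0.075 by edgeR). Reads of Igf2 are shared in fractions with Gm49394, a predicted gene that covers the same stretch of chromosome 7, so the level of either is uncertain. Ednrb, an endothelin receptor found in glia and their precursors among other cells, had an interaction of -0.68 (adjusted p = 0.119 by edgeR), with differences of -0.37, -0.66 and -0.57 in knockout and 0.23, 0.03 and 0.18 in control.

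Wnt7b, a ligand made by cortical neurons and progenitors that acts on brain vessels, differed in another way. It was nearly level in the knockout pairs, at 147 and 144, 134 and 123, and 102 and 113 CPM. In the control pairs it was at 94.5 and 136, 86.2 and 139, and 78.2 and 134 CPM, higher in the higher library each time. The higher libraries of the 2 genotypes overlapped for Wnt7b, and all 3 lower libraries of knockout lay above all 3 of control. Its interaction was -0.67 (SE 0.10, adjusted p = 0.119 by edgeR).

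Markers of oligodendrocyte precursors had negative interactions as well. Of 13 tested, 11 were negative, 8 had knockout differences all below the control ones and 0 were called, with 8 at an unadjusted p under 0.05 by edgeR and 2 called by DESeq2. The list's median was -0.75, and -0.66 without K2. Olig1, a transcription factor that specifies this lineage, was at 13.9 and 10.8, 17.9 and 10.1, and 10.7 and 7.64 CPM in K1, K2 and K3. Control pairs had Olig1 at 22.3 and 26.6, 21.99 and 28.1, and 27.8 and 44.1 CPM. Every knockout library was below every control library for Olig1, and the gap was wider between higher than between lower libraries. The interaction of Olig1 was -0.99 (SE 0.16, adjusted p = 0.177 by edgeR), and -0.85 without K2. Pdgfra, the receptor that drives division of these precursors, had overlapping levels, at 31.3 and 20.5, 34.4 and 20.6, and 28.3 and 14.7 CPM in knockout and 24.3 and 23.2, 28.4 and 25.1, and 35.6 and 41.1 CPM in control. Its interaction was -0.75 (SE 0.13, adjusted p = 0.208 by edgeR).

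Egfr was at 4.83 and 3.58, 7.10 and 5.73, and 7.45 and 6.39 CPM in the lower and higher libraries of K1, K2 and K3. In control it was at 18.6 and 25.0, 31.3 and 29.6, and 37.4 and 42.0 CPM, so that all 6 knockout libraries were below all 6 control libraries. The higher library had less Egfr in each knockout pair, and in control it had more in C1 and C3 and less in C2. The interaction was -0.48 (SE 0.15, adjusted p = 0.783 by edgeR). Of the 14 tested ErbB receptors, inhibitors and ligands, Egfr was the 1 gene with knockout differences all below the control ones, and the list's median of -0.13 was 0.05 without K2 and -0.36 without K1.

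Other glial and immune markers had smaller medians. Of 17 astrocyte markers 15 had a negative interaction, 3 were apart between genotypes and 0 were called, with 6 at an unadjusted p under 0.05 by edgeR and 2 called by DESeq2. The astrocyte median was -0.35, and -0.25 without K2. Differences were negative in all 3 knockout pairs for 6 of the 17 and positive in all 3 for 4. The summed level of the astrocyte list was at 3679 and 3597 CPM in K1, 3330 and 3800 CPM in K2 and 4076 and 4555 CPM in K3. In control pairs that sum was at 3262 and 3284 CPM in C1, 3625.5 and 3515 CPM in C2 and 3505 and 4059 CPM in C3. Sparcl1, a secreted protein of astrocytes that vessels also express, had differences of -0.43, -0.60 and -0.59 in knockout and -0.06, 0.01 and 0.25 in control (interaction -0.60, adjusted p = 0.203 by edgeR). Apoe, a lipid carrier, had differences of -0.16, -0.47 and -0.56 in knockout and 0.14, 0.22 and 0.32 in control (interaction -0.63, adjusted p = 0.208 by edgeR). Of 16 radial glia markers 15 were negative and 1 was apart, Fabp7, a fatty acid binding protein (interaction -0.54, adjusted p = 0.517 by edgeR), and the median was -0.20 (-0.13 without C3). DESeq2 called Fabp7 (adjusted p 0.0436). All 13 microglia markers were negative and 5 were apart, with 8 at an unadjusted p under 0.05 and 0 called by edgeR or DESeq2. Their median was -0.48, and -0.27 without K2. The microglial genes Fcrls and Ptprc, a scavenger receptor and the leukocyte phosphatase CD45, had interactions of -0.64 and -0.95 (adjusted p = 0.629 for both by edgeR). Without K2 these were -0.42 and -0.82.

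K2 stood apart in blood and mitochondrial transcripts beside these lists. The summed level of the 9 erythroid genes tested was at 12682 CPM in its lower and 8262 CPM in its higher library, against 4309 to 7589 CPM in the other 10 libraries. The lower library of K2 also had the most microglial (315 CPM), pericyte and endothelial transcript of the 12. The part of these in the interactions was not tested. With all pairs the median interaction was -0.21 for erythroid, -0.23 for mitochondrially encoded and -0.48 for microglial genes. Without K2 these medians were 0.04, 0.02 and -0.27. The pericyte and endothelial medians were -1.12 and -1.08 with K2, and -1.05 and -1.08 without it.

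**Figure D4:**
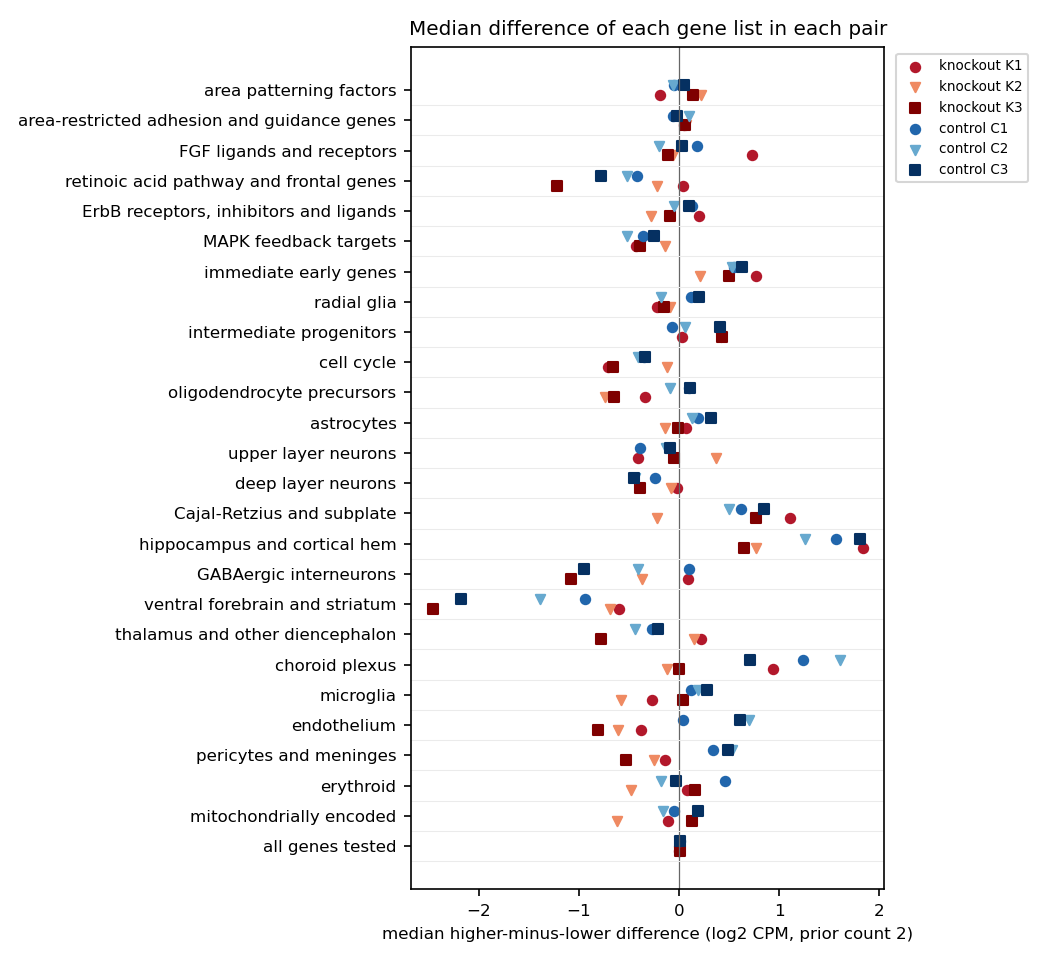
Median higher-minus-lower difference in log2 CPM of the tested members of each gene list (rows) in each pair, knockout pairs in red and control pairs in blue, with all genes tested in the last row. Endothelium, pericytes and meninges, oligodendrocyte precursors, astrocytes and microglia have every knockout median below every control median, and area patterning factors have both mixed near 0.

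In the other direction, the 10 genes with the smallest p had knockout differences all above the control ones, as did 889 genes (5.01%) of all tested. Choice by a small p favours this. Of the 10, 0 were called by edgeR. DESeq2 called 4 of them, Hspa12a, Egr1, Dcc and Clstn2 (adjusted p 0.0151, 0.00955, 0.00517 and 0.0227). Hspa12a, a distant member of the heat shock protein family, was at 125 and 138, 57.2 and 63.4, and 83.6 and 93.1 CPM in knockout pairs and at 152 and 120, 98.6 and 72.5, and 94.3 and 77.9 CPM in control pairs. The higher library had more Hspa12a in each knockout pair and less in each control pair, with an interaction of 0.51 (SE 0.07, adjusted p = 0.119 by edgeR). Egr1, an immediate early transcription factor induced by receptor signalling and neuronal activity, was at 162 and 239, 181 and 242, and 226 and 319 CPM in knockout pairs. In control it was at 276 and 284, 334 and 357, and 475 and 432 CPM, nearly level within pairs and above the knockout in the lower libraries. Its interaction was 0.49 (SE 0.09, adjusted p = 0.208 by edgeR).

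The remaining 8 were Bach2, Gpr85, Dcc, Elmod1, Crim1, Trmt9b, Clstn2 and Spock1, with interactions from 0.34 for Gpr85 to 1.02 for Trmt9b and adjusted p from 0.263 for Bach2 to 0.407 for Spock1 by edgeR. Dcc, the netrin receptor of growing axons, was at 251 and 286, 235 and 235, and 368 and 318 CPM in knockout pairs. In control Dcc was at 315 and 237, 416 and 237, and 427 and 258 CPM, lower in the higher library in all 3 pairs. Its interaction was 0.64 (SE 0.13, adjusted p = 0.291 by edgeR). The differences of Clstn2, a synaptic calsyntenin, were -0.04, 0.45 and 0.37 in knockout and -0.31, -0.40 and -0.23 in control.

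Immediate early genes did not share 1 direction. Of 15 tested, 9 had a positive and 6 a negative interaction, and the median of 0.07 ran from -0.05 without K3 to 0.28 without K2. Jun, a subunit of the AP-1 transcription factor, was opposite to Egr1, with differences of 0.24, 0.30 and 0.22 in knockout and 0.58, 0.56 and 0.70 in control and an interaction of -0.36 (SE 0.08, adjusted p = 0.283 by edgeR). Feedback targets of the MAPK cascade had a median of 0.12, which ran from -0.06 without K2 to 0.16 without K3. Of these, Spred3, an inhibitor of the cascade, had the smallest p, with an interaction of 0.50 (adjusted p = 0.436 by edgeR).

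For the factors that pattern cortical areas, to which Nr2f1 belongs, no effect of genotype on the difference was detected. Of the 21 members other than Nr2f1, 12 had a positive and 9 a negative interaction, 0 were apart in either direction and 0 were called or at an unadjusted p under 0.05 by edgeR, with 0 called by DESeq2. Their median was 0.06, and ran from -0.03 without K2 to 0.17 without C3. Members that were higher with Nr2f1 included Dmrt3, a factor of the medial caudal cortex, with differences of 2.96, 0.94 and 4.18 in knockout and 2.23, 3.23 and 4.27 in control. Bhlhe22, a factor of postmitotic area identity, had differences of 1.07, 0.47 and 1.22 in knockout and 0.44, 0.62 and 1.00 in control. Among those lower with Nr2f1, Rorb, a layer 4 factor, had differences of -0.87, -0.68 and -1.10 in knockout and -0.85, -1.29 and -0.85 in control. Etv1 had differences of -0.76, -1.10 and -2.23 in knockout and -0.63, -1.43 and -1.78 in control. Lhx2, a selector of cortical identity, was between 0.08 and 0.71 in all 6 pairs. These 5 genes had interactions of -0.83 (Dmrt3, SE 0.99), 0.23 (Bhlhe22, SE 0.23), 0.12 (Rorb, SE 0.17), -0.07 (Etv1, SE 0.50) and 0.06 (Lhx2, SE 0.21), each with an adjusted p of 0.998 by edgeR. The SE of Dmrt3 and Etv1 are wide, so differences between genotypes of the size seen for Rgs5 could not be told from none for these.

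Nr2f2, the close relative of Nr2f1, was the area factor with the most negative interaction, and K2 set its size. Nr2f2 was at 14.4 and 128 CPM in K1 and 12.996 and 56.8 CPM in K3, but at 103 and 42.3 CPM in K2, against the order of Nr2f1. In control it was at 14.5 and 128, 7.87 and 112, and 12.6 and 144 CPM. Its interaction of -2.12 (SE 1.32, adjusted p = 0.998 by edgeR) was -0.82 without K2 (adjusted p = 0.887).

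**Figure D5:**
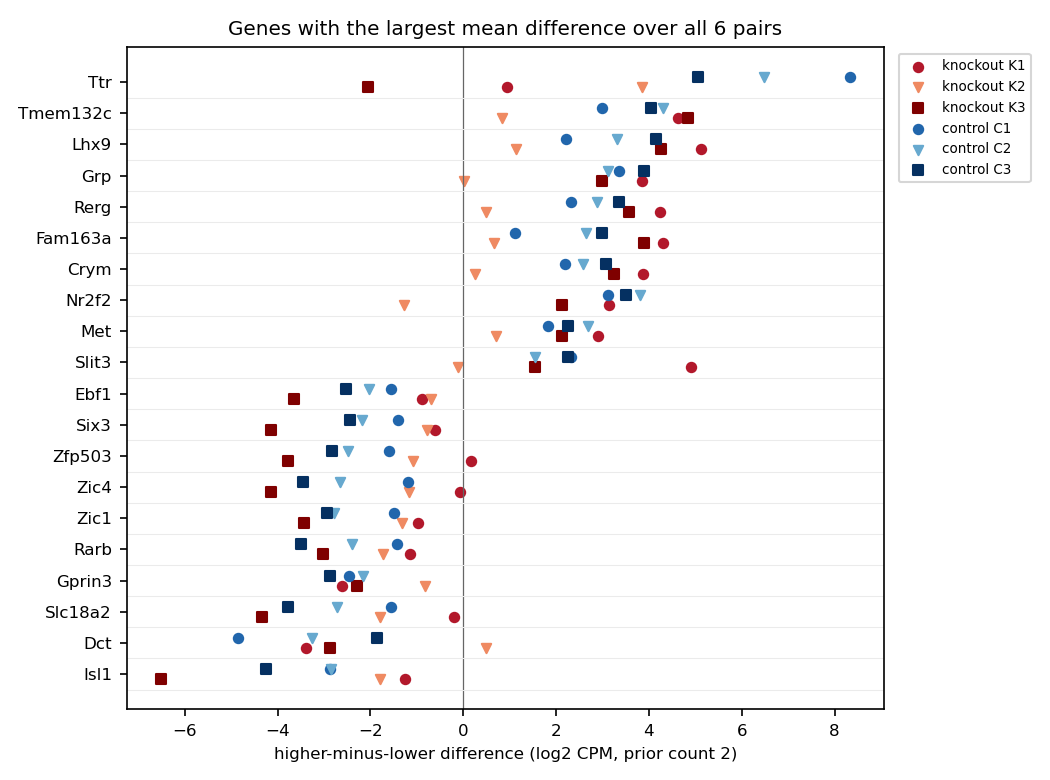
Higher-minus-lower difference in log2 CPM in each pair of the 10 genes with the most positive and the 10 with the most negative mean over all 6 pairs, knockout pairs in red and control pairs in blue. K2, the pale red triangles, lies closer to 0 than both other knockout pairs in the upper rows other than that of Ttr, and Ttr differs most between pairs.

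The genes with the largest mean differences overlapped between genotypes, Ttr aside. As the order of libraries was chosen by Nr2f1 in the same contrast, these values are a description. Lhx9, a LIM homeodomain gene, had differences of 5.13, 1.14 and 4.26 in knockout and 2.21, 3.31 and 4.16 in control. Crym, a thyroid hormone binding protein of cortical and hippocampal neurons, had differences of 3.88, 0.26 and 3.24 in knockout and 2.19, 2.59 and 3.08 in control. For Grp, a neuropeptide, they were 3.84, 0.01 and 2.99 in knockout and 3.36, 3.11 and 3.90 in control. Among genes lower with Nr2f1, the retinoic acid receptor gene Rarb had differences of -1.15, -1.73 and -3.02 in knockout and -1.43, -2.39 and -3.50 in control. Zic1, a zinc finger factor, had -0.97, -1.32 and -3.43 in knockout and -1.50, -2.78 and -2.93 in control. Gprin3 had -2.62, -0.83 and -2.28 in knockout and -2.47, -2.16 and -2.88 in control. Their interactions were 0.02 for Lhx9, -0.28 for Crym, -1.50 for Grp, 0.52 for Rarb, 0.57 for Zic1 and 0.59 for Gprin3, with an adjusted p of at least 0.998 for each by edgeR. Without K2 the interactions were 1.73 for Lhx9, 1.05 for Crym, -0.01 for Grp, 0.33 for Rarb, 0.26 for Zic1 and 0.03 for Gprin3.

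Markers of tissue that borders the cortex varied widely between pairs. Ttr, the transport protein of the choroid plexus, was at 0.07 and 47.6, 0.04 and 9.96, and 0.04 and 3.65 CPM in the control pairs. In K1 it was at 0.145 and 0.348 CPM, in K2 at 0.33 and 5.79 CPM and in K3 at 0.23 and 0 CPM. The 3 higher control libraries thus ran from 3.65 to 47.6 CPM, and the knockout ones overlapped them through K2 alone. Only 7 of 13 choroid plexus markers passed the filter. All 7 had a negative interaction and 2 were apart, and 0 were called by edgeR or DESeq2, with 2 at an unadjusted p under 0.05 by edgeR. The choroid plexus median of -0.71 ran from -1.27 without K1 to -0.47 without K2. Genes of the ventral forebrain and striatum were lower with Nr2f1 in all 3 control pairs for 14 of the 17 tested and in all 3 knockout pairs for 11. Their summed level was at 56.4 and 33.7 CPM in K1, 156 and 92.5 CPM in K2, 210.2 and 27.6 CPM in K3, 129 and 55.4 CPM in C1, 240.3 and 73.3 CPM in C2 and 323 and 68.2 CPM in C3. Their median interaction of 0.28 ran from -0.25 without K2 to 0.77 without K3 and was -0.04 without C3, with 0 of 17 apart. Hippocampal and hem markers were higher with Nr2f1 in all 3 control pairs for 17 of 20 and in all 3 knockout pairs for 13, with a median interaction of -0.24 that ran from -0.72 without K1 to 0.04 without K2.

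For dividing cells and neurons, 0 genes of the lists below were called by edgeR or DESeq2, with 2 of the interneuron and 2 of the FGF list at an unadjusted p under 0.05 by edgeR. All 18 cell cycle genes were lower in the higher library in each of the 6 pairs. All 18 had a negative interaction between -0.20 and -0.03, and 0 were apart. Their median of -0.13 ran from -0.35 without K2 to -0.03 without K1. The median interaction of upper layer markers was 0.20 and ran from -0.01 without K2 to 0.29 without K1. That of deep layer markers was 0.13 and ran from -0.02 without K2 to 0.23 without K3. That of GABAergic interneuron markers was -0.15, ran from -0.40 without K1 to 0.21 without K3, and was 0.09 without C1. Htr3a, a serotonin receptor of interneurons, had the smallest p of the last list, with an interaction of -0.80 (adjusted p = 0.517 by edgeR). Of 16 tested FGF ligands and receptors 2 had knockout differences all above the control ones, and for Fgfr1 they were 0.21, 0.37 and 0.43 against -0.42, -0.15 and 0.13 (interaction 0.48, adjusted p = 0.629 by edgeR).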

How the data were processed

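Paired reads of captured messenger RNA were sequenced, per the labels' protocols. The submitters' processing notes name STAR 2.7.8a, featureCounts 2.0.3 and the build GRCm39. Per the file headers, the values the authors deposited are estimated counts per gene, made with featureCounts, counted on the reverse strand over GENCODE vM28, with multi-mapping and overlapping reads shared in fractions, so genes that overlap or have near-identical copies are uncertain. Each file lists 55357 genes.

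Counts were rounded and fitted in R 4.3.3 with edgeR 4.0.16 (TMM, filterByExpr, robust quasi-likelihood, Benjamini-Hochberg adjusted p under 0.05 over 17734 genes). The model held the neighbouring pair as a block (6 pairs), level, and level by genotype, with 4 residual degrees of freedom. The SE is the size of the interaction over the square root of F. Differences are in log2 CPM with a prior count of 2, and levels are CPM scaled by TMM. An exact permutation of 3 pairs against 3 cannot go below p = 0.1, so none was used.

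The pairing comes from the numbering of the samples and the level from Nr2f1, not from the labels. Over 11180 autosomal genes at 5 CPM or more, deviations from the genotype-by-level mean of 3 libraries were correlated. The correlation was 0.434 to 0.719 between neighbours and -0.561 to 0.0853 between libraries titled as 1 embryo, which are never neighbours. Deviations from such a mean cancel out, so positive values between neighbours push those between other libraries down. The 2 ranges are therefore not separate observations. The members, lists and tests were chosen with earlier results of these data known. Named are Nr2f1, Egfr, the gene called, the 10 genes with the smallest p per direction at 1 CPM or more, genes among the 10 with the largest mean difference per direction at 5 CPM or more, area factors, and up to 2 genes per other list with the smallest p. Predicted and sex-linked genes are left out, and Gm49394 was named after its overlap with Igf2 was seen. The 25 lists are described by counts and medians without a test. Alternatives were DESeq2 1.42.0 and its size factors, limma 3.58.1 on pair differences, no filter, other blocks or the titled part, no X and Y genes, each pair left out, other prior counts and, chosen after seeing the data, C1 and K2 left out together. The promoter is from RefSeq's table of GRCm38.p6.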

Additional observations from a re-analysis of the deposited data

Results flagged for a closer look

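Rgs5 met the criterion that an effect differs between groups by a test of the difference itself. Its higher-minus-lower difference gave an interaction of -1.08 on the log2 scale, knockout minus control (edgeR adjusted p = 0.0098). The difference was negative in 3 of 3 knockout pairs and positive in 3 of 3 control pairs. It was not called in fits that left out K3, C1, C2 or C3, nor with the titled embryo as block (-1.07, edgeR adjusted p = 0.9999), with no block (-1.065, adjusted p = 0.99995) or for the titled part (-0.49, adjusted p = 1). The medians of the endothelial and pericyte lists were -1.08 and -1.12 beside it, and their part in the value was not tested. Rgs5 is itself a member of the pericyte list. Libraries titled as the same embryo were unlike in sex-chromosome transcripts, those of knockout 7 aside.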

How the results depend on the processing

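The 1 gene called was also the 1 gene called with DESeq2's size factors, with limma on pair differences and without X and Y genes. The DESeq2 Wald test called 48 genes (43 lower) and a fit with no filter 46 (43 lower, of 36318 tested), both with Rgs5, and the cause was not tested. With 1 pair left out the count ran from 0 to 10, and it was 10 without K1, 1 without K2 (Rgs5) and 0 without K3, C1, C2 or C3, where 795, 892, 651 and 514 genes had an unadjusted p under 0.05. Without C1 and K2 together it was 0, with 1220 such genes. In a paired fit with the titled replicate block the count was 0 (127 such genes), with no replicate block 0 (313) and with the titled part in place of the Nr2f1 level 0 (256), all by edgeR. The biological coefficient of variation was 0.1068 with the neighbouring pair as block, 0.227 with the titled replicate block and 0.192 without a block. The correlation of mean differences between genotypes was 0.673 without K2 and 0.647 and 0.691 with prior counts of 0.5 and 5. Of 48 named genes, 39 kept their sign in all 15 alternatives that gave a value. With the titled part, Egr1 was at -0.057, Fabp7 at 0.0064 and Lhx9 at -0.24, and Lhx9 was at -0.20 with no replicate block. With 1 pair left out, the sign turned for 7 genes, which ran from -1.51 to 0.37 for Dmrt3 (highest without K2), -0.028 to 1.02 for Rarb (lowest without C3), -0.030 to 0.22 for Rorb (lowest without C2), -0.089 to 0.25 for Lhx2 (lowest without C1), -1.18 to 1.05 for Crym (highest without K2), -0.37 to 0.35 for Etv1 (highest without K3) and -0.83 to 1.73 for Lhx9 (lowest without K1). Without C1 and K2, Lhx2 was at -0.19, Crym at 0.78 and Etv1 at 0.10. Depth limits genes near 0 CPM, such as Ttr in the lower libraries, and 3 pairs per genotype limit every interaction.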
